A study of Mus musculus with 64 samples.

Results

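The 10 genes described here code for proteins of the neutrophil, most of them granule proteins: the granule proteins Mpo, Elane, Ltf, Camp, Ngp, Lcn2 and Mmp8, the cytosolic proteins S100a8 and S100a9, and the surface receptor Csf3r. They were chosen by name, all 10 were found among the 20637 genes of the deposited table, and they were followed across all 16 groups of the series. Total RNA was sequenced from 4 populations of CD1 mouse heart cells: a cardiomyocyte fraction taken from the bottom of a Percoll gradient, fibroblasts sorted as CD90+/CD45-/CD31-, leukocytes sorted for CD45 and endothelial cells sorted for CD31. Surgery was done on postnatal day 1 (P1) or at P56, as a myocardial infarction (MI) or as a sham operation in which no infarct was made, and the hearts were taken 3 days later. Each of the 16 groups had 4 libraries. All mice were of the CD1 strain with no engineered allele named. The P56 mice were male, and the MI at P56 was a permanent ligation of a coronary artery. P56 hearts were perfused until they were free of blood before digestion, whereas P1 ventricles were minced in pools of 6 and no perfusion is named for them, so that age and the clearing of blood from the vessels cannot be told apart in these data.

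Neutrophils are short-lived white cells that leave the bone marrow and are among the first cells to enter injured muscle. They make their granules in order as they mature: primary granules with the peroxidase Mpo and the protease Elane are filled at the promyelocyte stage, and the specific granules with the iron-binding protein Ltf, the cathelicidin Camp, the granule protein Ngp, the siderophore-binding protein Lcn2 and the collagenase Mmp8 follow at the myelocyte and metamyelocyte stages. RNA for most granule proteins falls again before the cell enters the blood. S100a8 and S100a9 form calprotectin, an abundant zinc- and calcium-binding complex of the mature cell's cytosol, and Csf3r is the receptor for the growth factor G-CSF. Lcn2 is also made by many other cell types under inflammatory stimulation.

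Library depth was 9.59 to 27.5 M recovered reads, so that 3 reads, taken here as the lowest level to be read, correspond to 0.102 to 0.409 CPM (the authors' unit, reads scaled to their effective library size); the limit covers counting error only. The sorted populations carried their markers: Ptprc, which codes for CD45, stood at 290.2 to 426 CPM in P1 sham leukocytes and at 373 to 608 CPM in P56 sham leukocytes, and at 6.87 CPM or less in every sham library of fibroblasts and endothelial cells. Ptprc was higher in the P56 MI endothelial libraries, at 8.00 to 23.7 CPM, against 3.37 to 6.41 CPM in P56 sham. Every other MI library of fibroblasts and endothelial cells stayed at 5.52 CPM or less. The leukocyte libraries also held heart muscle RNA. The summed level of 12 cardiomyocyte markers was 18311 to 24058 CPM in P1 sham, 5502 to 15208 CPM in P1 MI, 74717 to 205385 CPM in P56 sham and 5151 to 18824 CPM in P56 MI leukocytes. It was 180135 to 211465 CPM in the P56 sham cardiomyocyte fraction. Levels in P56 sham leukocytes were thus read in libraries that held much muscle RNA. The values are not shares of a library, because their sum over all genes differed between groups. That sum was 897315 to 1380750 CPM in P56 sham leukocytes and 1930640 to 2627530 CPM in the P56 sham cardiomyocyte fraction. The marker sums of these 2 groups therefore do not compare their shares of muscle RNA. Endothelial RNA was present as well. The summed level of 10 endothelial markers was 3738 to 4420 CPM in P1 sham leukocytes, against 8795 to 10756 CPM in P1 sham endothelial cells. It was 884 CPM or less in the other leukocyte groups. The changes of the members in leukocytes with age and after MI are followed below by those of leukocyte markers in the same libraries. Nothing in the labels ties the 4 libraries of a group to separate litters or animals. The p-values then cover only the spread among the libraries sequenced, which may be technical. In 7 of the 64 libraries over 5% of the signal was 18S ribosomal RNA. For S100a8, S100a9 and Lcn2 the P56 replicates 3, sham and MI, of cardiomyocytes and leukocytes often stood between the other libraries of the 2 groups. Results after MI at P56 are also given without them. They were chosen after these values were seen, so leaving them out favours larger changes and smaller p-values. The values without them describe how far the results rest on these libraries and are not tests of the changes. At P56 libraries of the same number in the 4 populations deviated from their group means together (correlations of 0.118 to 0.415 in sham and 0.0818 to 0.451 after MI), so the 4 populations are not independent observations of a change at P56.

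Of the 10 genes, S100a8 and S100a9 lie 22.6 kb apart on chromosome 3 (90668978 to 90670035 and 90692632 to 90695721, GRCm38, as in the deposited table) with 0 other genes of the table between them. Camp (chromosome 9, 109847379 to 109849617), Ngp (110419747 to 110423012) and Ltf (111019271 to 111042767) fall within 1.17 Mb between the end of Camp and the start of Ltf, with 26 genes of the table in that interval. Mmp8 is on the same chromosome at 7558429 to 7568486. Lcn2 lies on chromosome 2 (32384633 to 32388252), Csf3r on chromosome 4 (126024550 to 126044440), Elane on chromosome 10 (79886312 to 79888216) and Mpo on chromosome 11 (87793581 to 87804413).

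Because most of the members moved together with age, their promoters were read for motifs of the factors that drive granule genes. The windows run from 250 bases before to 50 bases after the RefSeq start of each gene (GRCm38.p6), and all 10 members had 1. The 4 windows shown belong to Ltf and Ngp, which were low in every P56 leukocyte library, and to Mmp8 and Lcn2, which rose there after MI at P56. Capitals mark matches to TTGCNNAA, the core bound by C/EBP factors, and to GAGGAA, the core bound by PU.1, on either strand. Sequences are written 5′ to 3′ on the strand of the gene.
Ltf, chr9:111019042-111019341, + strand: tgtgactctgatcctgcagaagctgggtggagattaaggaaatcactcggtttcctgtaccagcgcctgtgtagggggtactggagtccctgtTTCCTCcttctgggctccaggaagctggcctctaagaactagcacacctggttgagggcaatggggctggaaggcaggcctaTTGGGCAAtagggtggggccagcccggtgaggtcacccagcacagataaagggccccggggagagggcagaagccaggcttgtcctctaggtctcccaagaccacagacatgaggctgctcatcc
Ngp, chr9:110419558-110419857, + strand: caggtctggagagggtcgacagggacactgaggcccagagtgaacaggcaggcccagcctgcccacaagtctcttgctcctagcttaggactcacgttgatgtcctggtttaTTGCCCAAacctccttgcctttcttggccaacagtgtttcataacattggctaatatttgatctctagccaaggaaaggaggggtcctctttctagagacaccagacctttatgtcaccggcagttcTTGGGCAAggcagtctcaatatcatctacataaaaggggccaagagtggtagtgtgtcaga
Mmp8, chr9:7558179-7558478, + strand: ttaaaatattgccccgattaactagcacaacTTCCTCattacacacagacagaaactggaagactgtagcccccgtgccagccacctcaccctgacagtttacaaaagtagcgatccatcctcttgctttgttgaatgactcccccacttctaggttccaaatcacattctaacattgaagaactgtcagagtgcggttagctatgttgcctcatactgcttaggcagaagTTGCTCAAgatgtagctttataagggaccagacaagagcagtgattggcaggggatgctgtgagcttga
Lcn2, chr2:32387690-32387989, - strand: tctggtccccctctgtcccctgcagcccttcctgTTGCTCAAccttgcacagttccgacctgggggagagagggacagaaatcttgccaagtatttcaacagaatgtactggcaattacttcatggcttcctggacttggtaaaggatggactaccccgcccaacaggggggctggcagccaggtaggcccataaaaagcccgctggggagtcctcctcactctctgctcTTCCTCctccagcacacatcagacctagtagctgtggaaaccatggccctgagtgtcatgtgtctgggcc
TTGCNNAA was found in 5 of 10 windows (Ltf, Ngp, Mmp8, Lcn2 and S100a9) and in 10.8% of the 32851 promoter windows of the same length in the table. GAGGAA was found in 7 of 10 (Mpo, Elane, Ltf, Lcn2, Mmp8, S100a8 and Csf3r) and in 28.3% of all windows. Ltf, Mmp8 and Lcn2 held both, as did 2.92% of all windows, and no match to the 1 motif overlapped a match to the other. The window of Camp held neither set of letters. The positions differed between genes: Ltf had its TTGCNNAA match 75 to 68 bases before the start, Mmp8 at 19 to 12 and Lcn2 at 216 to 209 bases before it. All windows shown are among the 5 with TTGCNNAA, so they do not stand for all members. S100a8 and Csf3r, which also rose in leukocytes after MI at P56, held GAGGAA only. The relation of the motifs to the changes in level was not tested. A match is a string of letters and shows no binding.

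**Figure D1:**
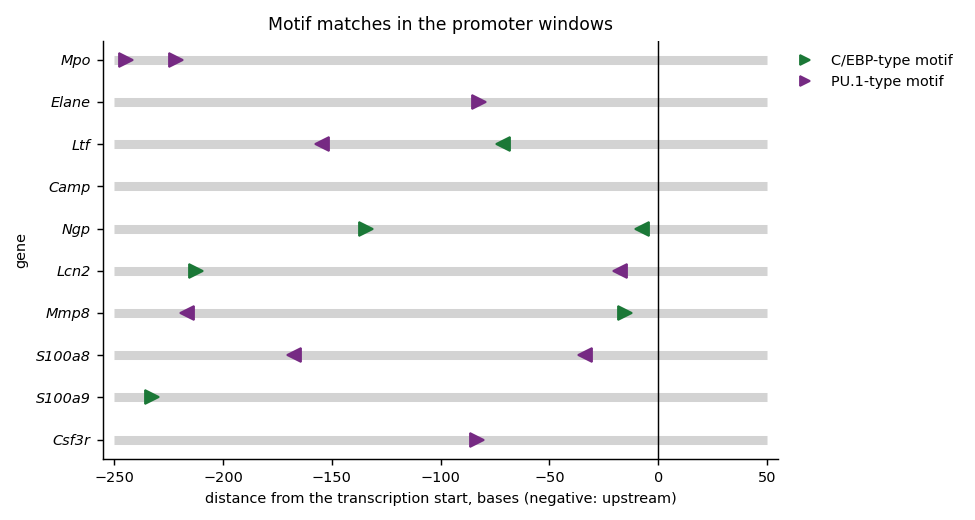
Matches to TTGCNNAA (C/EBP-type, green) and GAGGAA (PU.1-type, purple) in the promoter windows of the 10 genes. The horizontal axis is the distance from the RefSeq transcription start in bases, grey bars are the windows read, and arrowheads point right for matches on the gene's strand and left for the other strand; Camp has no match and Ltf, Mmp8 and Lcn2 have both kinds.

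Of the 10 genes 8 had their highest group mean in leukocytes of P1 hearts, the exceptions being Lcn2 and Csf3r, and leukocytes of P56 sham hearts had little of most of them. In P1 sham, where the test compares leukocytes with each of the other 3 populations over all 64 libraries, 9 of the 9 tested members were higher in leukocytes than in every other population (adjusted p under 0.05 by limma in all 3 comparisons), against 10.6% of all genes tested. In P1 MI it was again 9 of 9 (15.4% of all genes). In P56 sham it was 5 of 9 (10% of all genes), namely Ngp, Mmp8, S100a8, S100a9 and Csf3r, and in P56 MI it was 5 of 9 (12.5% of all genes), namely Ltf, Mmp8, S100a8, S100a9 and Csf3r. These members are known neutrophil genes, and neutrophils carry CD45. Elane passed the filter on low values (1 CPM in at least 4 libraries) in no fit. Its highest library was a P1 MI leukocyte library at 1.29 CPM, and it is given by its levels only. The filter was passed by 9 members in cardiomyocytes, 9 in leukocytes, 4 in endothelial cells (Ltf, Lcn2, S100a8 and S100a9) and 1 in fibroblasts (Lcn2).

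**Figure D2:**
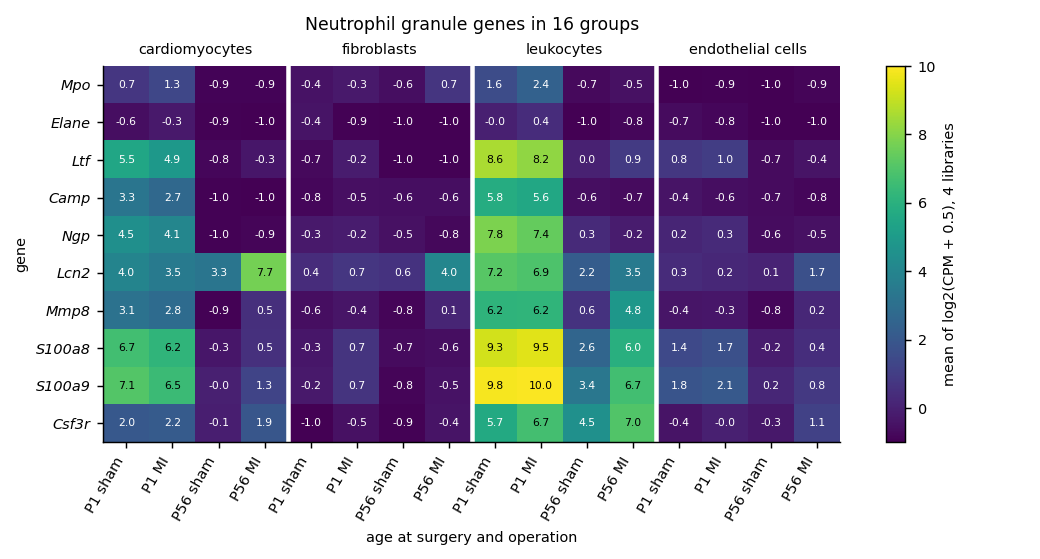
Mean of log2(CPM + 0.5) over the 4 libraries of each group for the 10 genes (rows) in 16 groups (columns), with the value printed in each cell; −1 is a level of 0. P1 leukocytes hold the highest values for most genes, Lcn2 stands at its highest in the P56 MI cardiomyocyte fraction, and Csf3r in P56 MI leukocytes.

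Per kilobase of exon (GENCODE M21 lengths), which allows levels to be compared between genes, S100a9 stood highest in P1 sham leukocytes at 1834 CPM per kb. S100a8 followed at 933, then Ngp at 193, Ltf at 117, Camp at 76.2, Lcn2 at 56.5, Mmp8 at 30.6 and Csf3r at 14.7 CPM per kb. Mpo and Elane, the primary granule genes, stood at 0.777 and 0.534 CPM per kb. In P56 MI leukocytes the order was another: S100a9 at 228, S100a8 at 110.4 and Csf3r at 38.8 CPM per kb led, Mmp8 stood at 12.1 and Lcn2 at 5.20, and Ltf, Ngp and Camp were at 0.520, 0.348 and 0.167 CPM per kb. The places of Ltf and Lcn2 depend on the length used. The deposited table gives Ltf 616 bases and Lcn2 1374 bases, against 3450 and 2623 bases of exon in GENCODE, and with the deposited lengths Ltf stood at 654 CPM per kb in P1 sham leukocytes, above Ngp, and Lcn2 at 108, above Camp.

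All 9 tested members were lower in P56 than in P1 sham leukocytes. Ltf, Camp, Ngp and Mpo reached 1 CPM in too few P56 leukocyte libraries to pass the filter without the P1 libraries. For them the filter favoured a fall with age, so the count of 9 is in part set by it. On the log2(CPM + 0.5) scale the differences were largest for the specific granule genes Ltf and Ngp and for the S100 pair, with Camp close to the pair. This order depends on the scale, and by mean CPM the fall of Camp was proportionally larger than that of the pair. Ltf, lactoferrin, stood at 399, 535, 269 and 408 CPM in the 4 P1 sham libraries and at 0.168, 0.393, 0.0886 and 2.46 CPM in the 4 P56 sham libraries. The groups were far apart, and within P56 replicate 4 was the highest. The change was -8.60 ± 0.50 (SE, adjusted p = 8.6e-10) in log2(CPM + 0.5), a scale that makes the changes of low genes look smaller. Ngp stood at 218, 295, 156 and 275 CPM in P1 sham and at 0.447, 0.472, 0.797 and 1.59 CPM in P56 sham leukocytes, a change of -7.51 ± 0.26 (SE, adjusted p = 2.8e-12). Camp, whose 4 P1 sham libraries held 56.7, 83.4, 40.7 and 50.3 CPM, was at only 1 to 8 reads in the P56 sham libraries, a change of -6.39 ± 0.21 (SE, adjusted p = 1.6e-12).

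S100a8 and S100a9 fell by amounts of the same order. S100a8 stood at 513, 808, 373 and 895 CPM in P1 sham and at 3.63, 1.97, 16.6 and 6.77 CPM in P56 sham leukocytes, and S100a9 at 811, 1160.5, 596 and 1262 CPM and at 7.44, 2.83, 29.5 and 13.2 CPM. The changes were -6.68 ± 0.55 (SE, adjusted p = 3.6e-08) and -6.49 ± 0.55 (SE, adjusted p = 4.7e-08). Within both genes the P56 sham replicate 3 was the highest of its group, and no P56 library reached the lowest P1 library. Mmp8, the neutrophil collagenase, went from 49.7 to 99.9 CPM to 0.615 to 3.10 CPM, a change of -5.56 ± 0.35 (SE, adjusted p = 2.3e-09), and Lcn2 from 93.2 to 194 CPM to 1.62 to 10.4 CPM, a change of -4.94 ± 0.52 (SE, adjusted p = 4.9e-07). The difference was smallest for the receptor Csf3r, which stood at 54.3, 64.05, 33.0 and 60.9 CPM in P1 sham and at 16.8, 20.8, 28.6 and 25.3 CPM in P56 sham leukocytes, a change of -1.18 ± 0.28 (SE, adjusted p = 0.0015). Mpo, myeloperoxidase, went from 4.51, 1.34, 1.99 and 2.81 CPM to 1 to 3 reads per library, a change of -2.29 ± 0.29 (SE, adjusted p = 4.2e-06). Elane was at 0.467, 0.126, 0.389 and 1.12 CPM in P1 sham and had 1 read in 1 of the 4 P56 sham libraries.

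With age, 67.1% of all genes tested in leukocytes were called in either direction and 34.5% were lower. The median change was -6.39 over the 9 members and -0.01 over all genes. In bulk libraries fewer cells of a type and less RNA per cell cannot be told apart. Of 8 genes carried by leukocytes in general (pan-leukocyte markers), 3 were higher and 2 lower with age, with a median change of 0.29, whereas the members fell. The summed level of the 10 members was 118 to 202% of the summed level of these 8 markers in the P1 sham libraries and 1.20 to 4.09% in the P56 sham libraries. Red cell markers also fell, 6 of 6, from a summed 529 to 787 CPM to 4.31 to 39.0 CPM, and their part in the result was not tested. Other genes of the neutrophil moved with the members: 16 of the 16 tested markers of mature neutrophils were lower at P56, with a median change of -4.22. The 4 highest of them by level over the leukocyte libraries were Trem1, a receptor that amplifies inflammatory signals (-6.11), the lectin receptor Clec4d (-3.70), the stefin gene BC100530 (-7.98) and Retnlg (-5.86). Of 13 other tested genes of the specific and gelatinase granules 9 were lower and 1, Lyz2, was higher (1.64 ± 0.23, SE, adjusted p = 1.4e-05). Lyz2, lysozyme, is also made by macrophages, whose 12 markers gave 9 higher and 2 lower. Of 4 other genes of primary granules and progenitors 2 were lower, Prtn3 (-2.22) and Ctsg (-1.85), and Ctsc, the protease that activates them, was higher (0.83). The mast cell markers, another granulocyte type, were lower in 6 of 6, with a median change of -4.01.

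**Figure D3:**
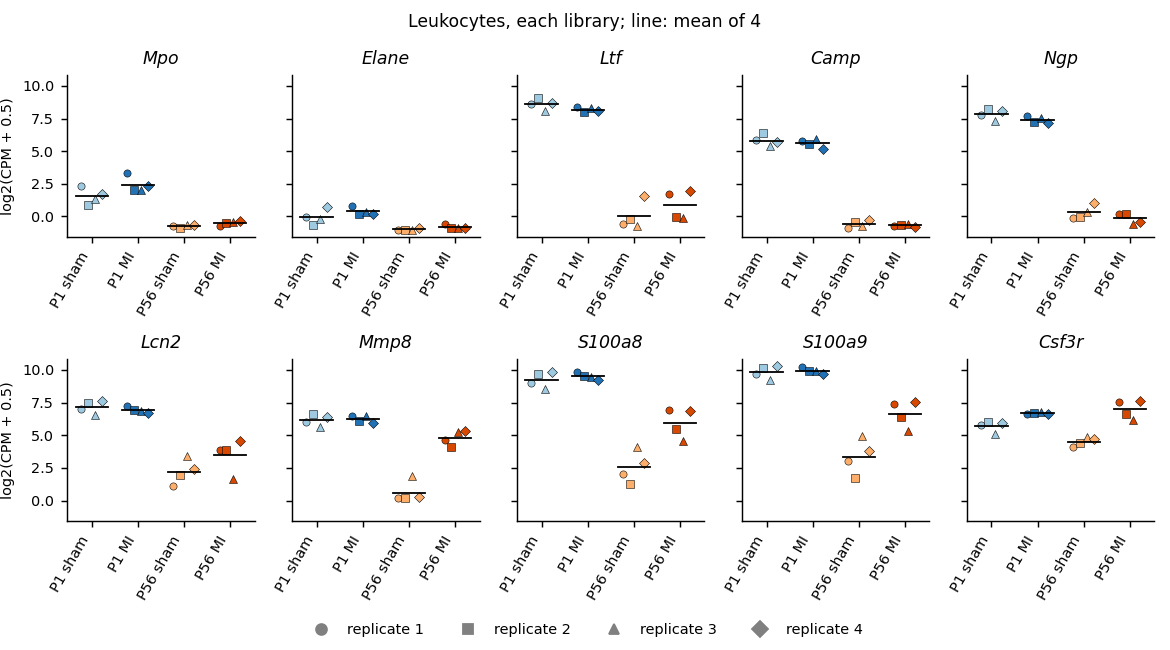
Level of each of the 10 genes in the 16 leukocyte libraries, as log2(CPM + 0.5) on the vertical axis, by age and operation on the horizontal axis. Points are libraries, with their replicate number as the shape, and lines are means of 4; no P56 library reaches the P1 libraries for Ltf, Camp and Ngp, whereas for Csf3r the P56 MI libraries overlap the P1 MI libraries.

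After MI at P1, 2 of the 9 tested members rose in leukocytes, the receptor Csf3r and the peroxidase Mpo, and 7 were not called. This stands against 45.2% of all genes tested in either direction and 22.6% higher. Csf3r stood at 99.8, 106, 108 and 98.7 CPM after MI, above all 4 sham libraries given above, and rose by 1.00 ± 0.28 (SE, adjusted p = 0.0087) on the log2 scale. Mpo stood at 9.59, 3.54, 3.52 and 4.43 CPM, with replicate 1 far above the others, and rose by 0.85 ± 0.29 (SE, adjusted p = 0.026); its range overlapped that of sham. This call was lost without that library, where the change was 0.55 (adjusted p = 0.091), and without sham replicate 2 (0.63, adjusted p = 0.096) or sham replicate 3 (0.77, adjusted p = 0.071). Ltf stood at 338, 252, 319 and 264 CPM and Ngp at 202, 154, 186 and 144 CPM, with ranges that overlapped those of sham, and their changes were -0.42 (adjusted p = 0.51) and -0.43 (adjusted p = 0.19). S100a9 at 1219, 981, 984 and 815 CPM and S100a8 at 898, 730.4, 719.8 and 609 CPM had changes of 0.11 (adjusted p = 0.89) and 0.26 (adjusted p = 0.72). The values for Camp, Lcn2 and Mmp8 were -0.21 (adjusted p = 0.43), -0.24 (adjusted p = 0.73) and 0.04 (adjusted p = 0.93); that of Mmp8 was below 0 with median-of-ratios scaling, edgeR and DESeq2. A p above the threshold does not show that the levels were equal.

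The pan-leukocyte markers rose in the same libraries, 8 of 8 with a median change of 1.27, while 10 of 10 endothelial, 6 of 6 red cell and 11 of 12 cardiomyocyte markers fell. Relative to the 8 pan-leukocyte markers the 10 members were therefore lower after MI at P1, with sums of 118, 202, 123 and 163% in the sham libraries and 83.1, 55.5, 65.9 and 52.1% in the MI libraries, ranges that did not overlap. For Csf3r alone the share was 2.52 to 4.02% in sham and 2.39 to 2.75% after MI, overlapping. The part of these shifts in cell makeup in the members' values was not tested. Of the mature neutrophil markers 2 of 16 rose, Clec4d (1.21 ± 0.29, SE, adjusted p = 0.0033) and the formyl peptide receptor Fpr2 (0.95 ± 0.31, SE, adjusted p = 0.019). Of the other specific and gelatinase granule genes 6 of 13 rose, and the 4 highest by level, Lyz2 (2.25), Itgam (1.48), Cybb (1.16) and Cyba (1.30), are also expressed by macrophages, whose markers rose in 11 of 12.

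After MI at P56 leukocytes had more RNA of S100a8, S100a9, Mmp8, Csf3r and Lcn2, and no call was made for Ltf, Ngp, Camp or Mpo. Thus 5 of 9 members were called, all higher, against 59.5% of all genes in either direction and 30.7% higher. S100a8 stood at 123, 43.5, 22.7 and 117 CPM, against 3.63, 1.97, 16.6 and 6.77 CPM in sham. All 4 MI libraries were above all 4 sham libraries, with the 2 replicates 3 closest to each other, and the rise was 3.38 ± 0.55 (SE, adjusted p = 7.6e-05). S100a9 at 169, 82.9, 38.7 and 185 CPM showed the same order and rose by 3.30 ± 0.55 (SE, adjusted p = 9.1e-05). Mmp8 had the largest rise of the members. It stood at 0.615, 0.629, 3.10 and 0.689 CPM in sham and at 23.8, 16.5, 37.2 and 40.1 CPM after MI, with no overlap and with sham replicate 3 alone above 1 CPM, and rose by 4.21 ± 0.35 (SE, adjusted p = 2.4e-07). Csf3r at 189, 100.0, 72.5 and 199 CPM rose by 2.49 ± 0.28 (SE, adjusted p = 2.6e-06) and was the 1 member whose mean in P56 MI leukocytes (140.2 ± 63.5 CPM, SD, n = 4) was above its mean in P1 MI leukocytes (103 ± 4.57 CPM), although the ranges overlapped. Lcn2 at 14.3, 14.1, 2.70 and 23.4 CPM overlapped its sham range of 1.62 to 10.4 CPM, because MI replicate 3 was below 3 of the 4 sham libraries. Its rise was 1.28 ± 0.52 (SE, adjusted p = 0.042), a call lost with median-of-ratios scaling (adjusted p = 0.058), with only the compared libraries in the fit (adjusted p = 0.12) and without the libraries high in 18S (adjusted p = 0.11). The call was also lost without sham replicates 1, 2 or 4 or MI replicates 1, 2 or 4 (adjusted p 0.058 to 0.15). Without the 2 P56 replicates 3 the rise of Lcn2 was 2.30 (adjusted p = 4.9e-05), that of S100a8 4.36 (adjusted p = 4.6e-06), that of S100a9 4.27 (adjusted p = 5.4e-06), that of Mmp8 4.49 (adjusted p = 1.5e-07) and that of Csf3r 2.88 (adjusted p = 2.4e-06).

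Ltf stood at 2.83, 0.474, 0.401 and 3.46 CPM after MI at P56, overlapping sham, and its change was 0.87 ± 0.50 (SE, adjusted p = 0.15). Without sham replicate 4, the highest sham library, the change was 1.39 (adjusted p = 0.013). Ngp stood at 0.636, 0.646, 0.182 and 0.236 CPM, with a change of -0.48 ± 0.26 (SE, adjusted p = 0.12); DESeq2 on whole reads gave -1.08 (adjusted p = 0.018). Camp had 1 to 8 reads in the sham and 2 to 5 in the MI libraries, and Mpo 1 to 3 and 2 to 7, levels near the limit of 3 reads at which no fold was read. In the MI libraries the balance between specific granule and cytosolic genes also differed between the ages. The sum of Ltf, Camp and Ngp divided by the sum of S100a8 and S100a9 was 0.281, 0.264, 0.333 and 0.311 in the P1 MI libraries and 0.0123, 0.00989, 0.0125 and 0.0125 in the P56 MI libraries, 2 ranges that did not overlap and that each varied little within their group. In sham it was 0.509, 0.463, 0.480 and 0.340 at P1 and 0.0606, 0.230, 0.0211 and 0.220 at P56, also without overlap, but with a P56 range that was wide and came close to that of P1 MI. S100a9 stood at 8.25 to 12.2 times the level of Csf3r in P1 MI and at 0.533 to 0.930 times in P56 MI libraries. By contrast the ratio of S100a9 to its partner S100a8 lay between 1.34 and 2.05 in all 16 leukocyte libraries.

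The pan-leukocyte markers rose here as well, 8 of 8 with a median of 1.29, and the cardiomyocyte markers fell in 12 of 12 with a median of -3.20. Monocyte and macrophage markers gave 5 higher and 5 lower of 12. Set against the 8 pan-leukocyte markers, S100a9 was at 0.548, 0.111, 1.35 and 0.586% in sham and at 3.71, 2.08, 0.986 and 3.58% after MI at P56. The ranges overlapped through the 2 replicates 3 only, as did those of S100a8, at 0.0770 to 0.761% in sham and 0.578 to 2.69% after MI. Lcn2 was at 0.120, 0.131, 0.475 and 0.214% in sham and at 0.314, 0.355, 0.0689 and 0.452% after MI, with the MI range reaching from below the lowest to near the highest sham library. Mmp8 was at 0.0246 to 0.142% and 0.416 to 0.948%, and Csf3r at 0.813 to 1.31% and 1.85 to 4.14%, both with no overlap. The part of the shift in cell makeup in the members' rise was not tested.

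The rise at P56 differed from that at P1 in 4 of the 9 members by the test of the difference itself, against 45.2% of all genes in either direction and 23.7% higher. The difference was 4.17 ± 0.50 (SE, adjusted p = 1.4e-05) for Mmp8, 3.12 ± 0.78 (SE, adjusted p = 0.0043) for S100a8, 3.19 ± 0.78 (SE, adjusted p = 0.0036) for S100a9 and 1.50 ± 0.40 (SE, adjusted p = 0.0062) for Csf3r, in each case a larger rise at P56. For Lcn2 it was 1.53 ± 0.73 (SE, adjusted p = 0.10). Without the 2 P56 replicates 3 it was 2.54, a value that follows in part from how these were chosen. Even so, S100a8, S100a9 and Mmp8 after MI at P56 stayed below their P1 levels: the highest P56 MI library of S100a9, at 185 CPM, was under the lowest P1 leukocyte library, at 596 CPM.

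**Figure D4:**
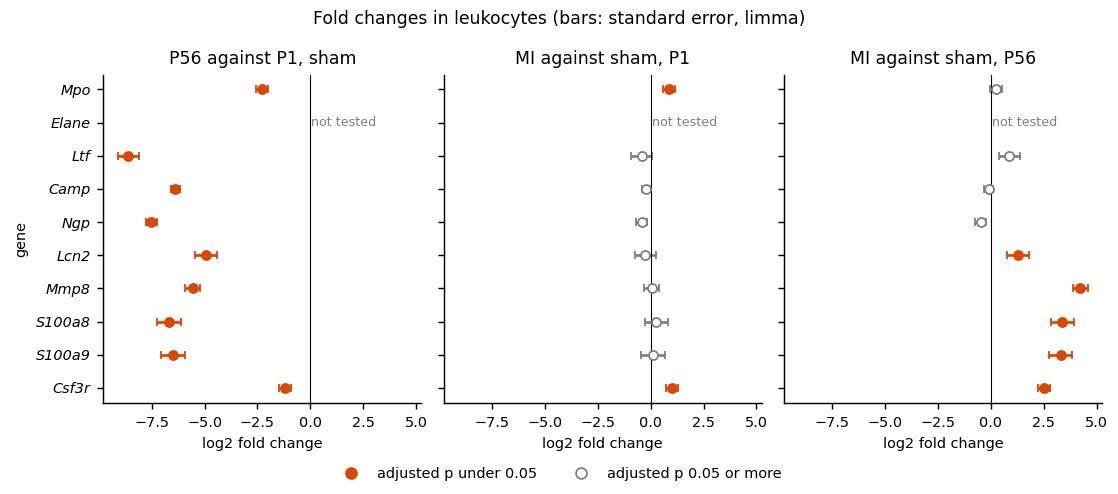
Log2 fold changes of the members in leukocytes, on the log2(CPM + 0.5) scale of the horizontal axis, for P56 against P1 in sham and for MI against sham at each age, with standard errors from limma. Filled points passed an adjusted p of 0.05; Elane was not tested. All 9 tested genes lie left of 0 with age, and Mmp8, S100a8, S100a9, Csf3r and Lcn2 lie to the right after MI at P56.

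Most other neutrophil genes tested were also higher after MI at P56. Of 16 tested mature neutrophil markers 14 rose after MI at P56, with a median of 3.20 against 0.02 over all genes and 1.29 over the pan-leukocyte markers. Of all genes 59.5% were called in either direction and 30.7% higher. The called markers of highest level were Trem1 (5.53 ± 0.42, SE, adjusted p = 8.4e-08), Clec4d (4.71 ± 0.29, SE, adjusted p = 1.2e-08), Retnlg (3.36 ± 0.43, SE, adjusted p = 7.8e-06) and Stfa2 (0.74 ± 0.27, SE, adjusted p = 0.027). The 2 that were not called were BC100530 (0.47) and Ly6g (-0.07), the antigen commonly used to sort mouse neutrophils, which was at 4.59 CPM in P1 MI and 0.0884 CPM in P56 MI leukocytes on average. The difference between the ages was called for 13 of 16, all larger at P56, against 45.2% of all genes in either direction and 23.7% higher. Of 13 other specific and gelatinase granule genes 11 rose, with a median of 1.49, led by level by Lyz2 (0.62 ± 0.23, SE, adjusted p = 0.031), the integrin Itgam (2.11 ± 0.23, SE, adjusted p = 1.9e-06), the oxidase subunit Cyba (1.45 ± 0.19, SE, adjusted p = 1.3e-05) and the lectin Chil3 (6.82 ± 0.59, SE, adjusted p = 2.8e-07), genes that macrophages express too. Of 4 tested primary granule genes 3 rose, Ctsc (0.62 ± 0.22, SE, adjusted p = 0.024), Gusb (1.39 ± 0.19, SE, adjusted p = 1.4e-05) and Prtn3 (3.53 ± 0.18, SE, adjusted p = 2.1e-09), and Ctsg had a change of -0.08. Prtn3, proteinase 3, was called in leukocytes in the same direction at P1 (1.40 ± 0.18, SE, adjusted p = 1.7e-05).

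Of 8 transcription factors of granulocyte development 5 rose after MI at P56, where 59.5% of all genes were called in either direction and 30.7% higher. The 4 called factors of highest level were Spi1, which codes for PU.1 (0.85 ± 0.17, SE, adjusted p = 4.4e-04), Cebpa (1.02 ± 0.17, SE, adjusted p = 1.2e-04), Cebpb (1.96 ± 0.25, SE, adjusted p = 7.5e-06) and Cebpd (0.50 ± 0.21, SE, adjusted p = 0.047). Spi1, Cebpa and Cebpd rose by less than the pan-leukocyte markers of the same libraries, whose median change was 1.29. The remaining factor, Cebpe, the factor known to be needed for specific granules, was named after its values were seen. It stood at 3.38 CPM in P1 sham, 5.10 in P1 MI, 0.138 in P56 sham and 4.27 CPM in P56 MI leukocytes on average, and rose by 2.74 ± 0.34 (SE, adjusted p = 5.5e-06) at P56. Its mean in P56 MI leukocytes lay between its 2 P1 means, and those of Ltf, Ngp and Camp lay far below theirs. A relation of Cebpe to these genes was not tested. After MI at P1, 4 of the 8 factors rose and Cebpd fell (-1.51 ± 0.21, SE, adjusted p = 2.5e-05). Cebpe had a change of 0.58 (adjusted p = 0.17). There 45.2% of all genes were called in either direction and 22.6% higher, and the pan-leukocyte markers had a median change of 1.27.

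Ligands, receptors and inhibitors of the members were read from the same fit. Csf3, the G-CSF that binds Csf3r, averaged 6.49 CPM in P1 sham and 2.49 CPM in P1 MI leukocytes and fell by 1.26 ± 0.21 (SE, adjusted p = 1.9e-04) on the log2 scale. At P56 it averaged 0.0993 CPM in sham and 0.367 CPM after MI, with a change of 0.52 ± 0.21 (SE, adjusted p = 0.047). Tlr4, a receptor for calprotectin, rose at both ages, by 0.96 ± 0.11 (SE, adjusted p = 6.3e-06) at P1 and 0.38 ± 0.11 (SE, adjusted p = 0.0086) at P56, and Ager, another such receptor, had changes of -0.32 (adjusted p = 0.30) and 0.53 (adjusted p = 0.073). Slc22a17, a cell surface receptor for Lcn2, fell at P56 (-1.003 ± 0.23, SE, adjusted p = 0.0014). Serpinb1a, which inhibits the elastase made from Elane, rose at P56 (1.24 ± 0.14, SE, adjusted p = 2.7e-06), as did Timp1, an inhibitor of metalloproteinases such as Mmp8 (5.67 ± 0.27, SE, adjusted p = 7.4e-10). Over the whole list of 15 tested, 2 rose and 4 fell at P1, and 11 rose and 1 fell at P56. Of all genes 45.2% were called in either direction at P1 and 59.5% at P56. The pan-leukocyte markers of the same libraries had median changes of 1.27 at P1 and 1.29 at P56.

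RNA of the granule genes was also found in the P1 cardiomyocyte fraction, which was not sorted. Ltf stood at 39.4, 22.8, 81.2 and 59.5 CPM and S100a9 at 132, 40.0, 265 and 221 CPM in the 4 P1 sham libraries of this fraction, with replicate 2 lowest for both. In replicate 2 16.6% of the signal was 18S ribosomal RNA, against 0.0604% or less in the others. Camp, Ngp, Lcn2, Mmp8 and S100a8 were present at 3.72 to 13.6, 9.47 to 37.6, 6.00 to 30.6, 2.54 to 15.8 and 27.7 to 201 CPM. As a percentage of the mean level in P1 sham leukocytes, the 8 members with at least 5 CPM there ran from 6.91% for Csf3r to 20.0% for S100a8, with a median of 13.1%. The same percentage had a median of 9.38% for the pan-leukocyte markers, 10.9% for mature neutrophil markers and 7.47% for monocyte and macrophage markers, and 239% for red cell markers. The fraction thus held leukocyte and red cell RNA in general along with that of the members.

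With age 8 of the 9 tested members were lower in the cardiomyocyte fraction (70.4% of all genes were called in either direction, 37% lower), as were 7 of 8 pan-leukocyte and 6 of 6 red cell markers. Of the 8 lower members, Csf3r alone reached 1 CPM in enough P56 libraries to pass the filter without P1 libraries. For the others the filter favoured a fall with age. The changes were -7.07 ± 0.56 (SE, adjusted p = 3.3e-09) for S100a9, -7.00 ± 0.57 (SE, adjusted p = 4.8e-09) for S100a8, -6.34 ± 0.49 (SE, adjusted p = 2.4e-09) for Ltf and -5.41 ± 0.32 (SE, adjusted p = 7.1e-11) for Ngp. Camp, Mmp8, Csf3r and Mpo followed with -4.21 (adjusted p = 7.6e-10), -4.07 (adjusted p = 1.6e-06), -2.10 (adjusted p = 1.2e-05) and -1.64 (adjusted p = 2.8e-06). The exception was Lcn2, at 11.3, 6.00, 30.6 and 25.6 CPM in P1 sham and 9.93, 4.91, 17.5 and 7.71 CPM in P56 sham, groups that overlapped, with a change of -0.73 ± 0.60 (SE, adjusted p = 0.29). After MI at P1, 0 of 9 members were called by limma (0.343% of all genes were), 1 of them, Mpo, at an unadjusted p under 0.05 (0.61 ± 0.22, SE, adjusted p = 0.26), and 0 were called by edgeR or by DESeq2.

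After MI at P56 the cardiomyocyte fraction had much more Lcn2. It stood at 9.93, 4.91, 17.5 and 7.71 CPM in sham and at 453, 258, 44.1 and 375 CPM after MI. The groups did not overlap, and the 2 replicates 3 were the highest sham and the lowest MI library. The rise was 4.46 ± 0.60 (SE, adjusted p = 1.1e-04), with 9.69% of all genes called in either direction and 8.66% higher, and it differed from the change at P1, -0.45 (adjusted p = 0.85), by 4.91 ± 0.85 (SE, adjusted p = 0.0043), with 1.75% of all genes called in either direction and 1.69% higher. Without the 2 replicates 3 the rise of Lcn2 was 5.51 (adjusted p = 8.1e-06). Of the 9 members 2 were called in each of these comparisons, the other being Csf3r. Csf3r stood at 0.248, 0.472, 0.954 and 0.280 CPM in sham and 4.70, 1.45, 4.27 and 4.08 CPM after MI, without overlap, and rose by 2.02 ± 0.32 (SE, adjusted p = 3.9e-04). Its difference between ages, 1.88 ± 0.45 (SE, adjusted p = 0.039), was lost under 6 of the 11 other settings that tested it and without any 1 of 10 of the 16 libraries. S100a9 at 3.22, 0.887, 0.686 and 4.95 CPM had a change of 1.28 ± 0.56 (SE, adjusted p = 0.17) and S100a8 one of 0.84 ± 0.57 (SE, adjusted p = 0.39). Without the 2 replicates 3 that of S100a9 was 1.96, a value that follows in part from how these were chosen. Mmp8 stood at 0.495, 0.161, 4.75 and 0.607 CPM, most of it in replicate 3, and its change was 1.41 ± 0.52 (SE, adjusted p = 0.10), but 5.61 (adjusted p = 0.024) by edgeR and 5.52 (adjusted p = 9.7e-04) by DESeq2. Ltf, Camp and Ngp were at 0 in 3, 4 and 1 of the 4 MI libraries.

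Pan-leukocyte markers rose in the same fraction after MI at P56, 8 of 8 with a median of 2.32, from a summed 14.8 to 59.5 CPM to 81.6 to 294 CPM. The level of Lcn2 was not at the share of those markers. Averaged over libraries, Lcn2 in the P56 MI cardiomyocyte fraction was 2073% of its level in P56 MI leukocytes, whereas Csf3r, S100a8, S100a9 and Mmp8 were at 1.67% to 5.11% and the pan-leukocyte markers had a median of 4.35%. In the test over all 64 libraries, Lcn2 in P56 MI leukocytes minus Lcn2 in the cardiomyocyte fraction was -4.21 on the log2 scale. In P56 sham Lcn2 in the fraction averaged 199% of the leukocyte level. The ranges overlapped there, at 4.91 to 17.5 CPM and 1.62 to 10.4 CPM, and the difference was not called (limma, adjusted p = 0.092). These percentages also depend on the authors' scaling. In recovered reads per library Lcn2 averaged 97.25 in the P56 sham fraction and 115 in P56 sham leukocytes. After MI it averaged 3464 and 311 reads. Ligands, receptors and inhibitors rose in 7 of 14 tested in this fraction, among them Timp1 (5.31 ± 0.42, SE, adjusted p = 4.5e-07) and Serpinb1a (3.48 ± 0.36, SE, adjusted p = 9.4e-06), and the Lcn2 receptor Slc22a17 had a change of 0.46 ± 0.25 (SE, adjusted p = 0.27).

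Lcn2 rose after MI at P56 in the 2 remaining populations as well. Same-numbered libraries of the populations varied together at P56, so these rises are not independent of those above, although the labels do not say what the numbers mark. In fibroblasts it stood at 0.452, 1.13, 1.78 and 1.03 CPM in sham and 19.9, 33.5, 4.19 and 22.1 CPM after MI, without overlap and with MI replicate 3 lowest, and rose by 3.43 ± 0.55 (SE, adjusted p = 9.1e-05), as the 1 tested member, where 50% of all genes were called in either direction and 24.8% higher. Without the 2 replicates 3 the rise was 4.23 (adjusted p = 1.5e-05). After MI at P1 its 4 libraries held 2.03, 1.11, 0.767 and 0.987 CPM, within the sham range of 0.238 to 3.28 CPM, with a change of 0.33 (adjusted p = 0.87), or -0.076 by edgeR, where 2.37% of all genes were called. The changes at the 2 ages differed by 3.10 ± 0.77 (SE, adjusted p = 0.0068), against 31.7% of all genes called in either direction and 16.2% higher. Between P1 and P56 sham the change was 0.21 (adjusted p = 0.75), and 67% of all genes were called. Pan-leukocyte markers were low in fibroblasts, at a summed 4.39 to 12.6 CPM in P56 sham and 9.76 to 24.1 CPM in P56 MI, and 3 of 6 rose after MI. Lcn2 was at 17.4 to 227% of their sum in P56 MI fibroblasts and at 0.0689 to 0.452% in P56 MI leukocytes. Mpo, not tested in fibroblasts, stood at 0.258, 0.174, 0.173 and 0.0857 CPM in P56 sham and 1.59, 0.527, 0.940 and 1.63 CPM in P56 MI, without overlap. S100a9 was at most 2.03 CPM in any fibroblast library.

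In endothelial cells Lcn2 stood at 0.352, 0.382, 0.855 and 0.769 CPM in P56 sham and 4.68, 3.00, 0.958 and 3.39 CPM in P56 MI, without overlap, and rose by 1.58 ± 0.34 (SE, adjusted p = 0.0042); it was the 1 of 4 tested members called, with 20.4% of all genes called in either direction and 12.5% higher. Leaving out MI replicate 1, 2 or 4 took Lcn2 below the filter, so that the call has no value there. After MI at P1, 0 of 4 were called (0.216% of all genes) by limma, 0 had an unadjusted p under 0.05, and 0 were called by edgeR or DESeq2. The difference between ages for Lcn2 was 1.70 ± 0.49 (SE, adjusted p = 0.052); 0 of 4 were called against 5.41% of all genes, 1 had an unadjusted p under 0.05, and edgeR and DESeq2 each called 1, Lcn2. With age Ltf, S100a8 and S100a9 were lower (62.9% of all genes called in either direction, 29.3% lower), with changes of -1.45 (adjusted p = 7.1e-04), -1.63 (adjusted p = 0.0081) and -1.67 (adjusted p = 0.010). Ltf and S100a8 reached 1 CPM in too few P56 endothelial libraries to pass the filter without P1 libraries, so for them it favoured a fall with age. P1 sham replicate 4 was the highest endothelial library for Ltf, S100a8 and S100a9, with S100a9 at 1.31, 1.68, 3.60 and 9.62 CPM in the 4 libraries. Without the 2 P1 replicates 4 the change with age was -1.02 (adjusted p = 4.8e-04) for Ltf, -1.17 (adjusted p = 0.036) for S100a8 and -1.17 (adjusted p = 0.049) for S100a9. Pan-leukocyte markers rose in 6 of 7 tested after MI at P56.

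**Figure D5:**
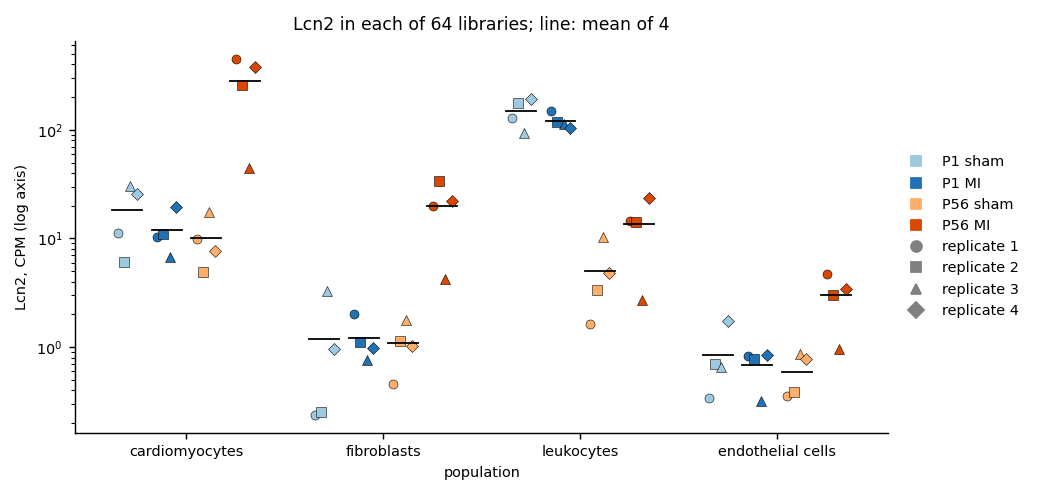
Lcn2 in each of the 64 libraries, in CPM on a log axis, by population on the horizontal axis, with age and operation as the colour and replicate number as the shape. Lines are means of 4. The P56 MI libraries lie above P56 sham in cardiomyocytes, fibroblasts and endothelial cells and overlap them in leukocytes, and P56 MI replicate 3 is the lowest of its group in all 4 populations.

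Ordered by their mean, the 16 groups gave sequences that were alike for some members and less alike for others. For Ltf it ran from P1 sham leukocytes (403 ± 108 CPM, SD, n = 4) to P1 MI leukocytes (294 ± 41.7 CPM), which overlapped, then to the P1 cardiomyocyte fractions in sham (50.8 ± 25.2 CPM) and MI (30.1 ± 11.2 CPM), which overlapped as well. P56 MI leukocytes came next at 1.79 ± 1.59 CPM, overlapping the endothelial groups of P1. For S100a9 the 2 groups of P1 leukocytes led with 999.8 ± 166 CPM and 957 ± 309 CPM, overlapping, and P1 sham cardiomyocytes, P56 MI leukocytes and P1 MI cardiomyocytes followed as a run of overlapping groups at 165 ± 99.6 CPM, 119 ± 70.0 CPM and 99.3 ± 49.0 CPM. Csf3r had P56 MI leukocytes first, overlapping P1 MI leukocytes, then P1 sham leukocytes (53.1 ± 14.0 CPM) and P56 sham leukocytes (22.9 ± 5.14 CPM), each apart from its neighbour, and every other group at 4.17 CPM or less. Lcn2 had P56 MI cardiomyocytes first (283 ± 178 CPM), overlapping P1 sham leukocytes (148 ± 45.9 CPM), and then P1 MI leukocytes and P56 MI fibroblasts (19.9 ± 12.1 CPM).

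Across the 16 group means of log2(CPM + 0.5), each member was compared with the mean of the other 9. Pearson's r was highest for S100a8 (0.972) and S100a9 (0.968) and lowest for Csf3r (0.780) and Lcn2 (0.664), as a description of 16 points that share populations and libraries. Spearman's rho, which uses only the order of the groups, was 0.526 for Lcn2, 0.565 for Mpo, 0.572 for Elane and 0.582 for Camp. For Csf3r rho was 0.844, and it was highest for Mmp8 at 0.941. Among 18334 other genes, those most like the mean of the 10 members were the stefin gene Stfa2l1 (r = 0.985), the neutrophil surface protein Cd177 (0.984), the mast cell tryptase Tpsb2 (0.984), Retnlg (0.982), the mast cell chymase Cma1 (0.981), Asprv1 (0.981), the mast cell carboxypeptidase Cpa3 (0.979) and Gm5483 (0.979). Of these 8, 3 code for mast cell proteases. Tpsb2 averaged 2.29 CPM in P56 sham and 2.37 CPM in P56 MI leukocytes, and Cd177 averaged 0.125 and 6.43 CPM.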

How the data were processed

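RNA-seq of 64 libraries was analysed, 4 in each of 16 groups, and all 64 columns of the deposited table were matched to a sample by title. Per the labels' protocols, stranded TruSeq libraries were made after removal of ribosomal RNA (Ribo-Zero Gold) and read as 50-base single-end reads. Per the submitters' processing notes Trimmomatic, STAR, HTSeq and edgeR were used, with mm10, GRCm38 and GRCh38 as builds. Versions, the role of each build and the strand setting of the counting are not given in the sources used here. The deposited values are a signal the authors name CPM, reads scaled to an effective library size. In every library they are whole multiples of the value of 1 read (100% of values within 0.01), so that reads were recovered for edgeR and DESeq2.

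For each population a limma (3.58.1, R 4.3.3) model with a mean-variance trend was fitted to log2(CPM + 0.5) of its 16 libraries, over genes that reached 1 CPM in 4 or more of these, with Benjamini-Hochberg adjustment over all genes and a threshold of 0.05. A second model over 64 libraries compared populations, with no term for the replicate number. The deviations of same-numbered libraries from their group means were compared across the 4 populations: of 24 comparisons a condition, the best match had the same number in 24 in P56 sham, 24 in P56 MI, 16 in P1 MI and 12 in P1 sham. The labels do not say what the numbers mark. The fit was tested on simulated data. Alternatives were other pseudocounts, filters, scaling and samples, a replicate block, edgeR (4.0.16) and DESeq2 (1.42.0). None of 96 pairs of libraries within groups was identical, and their chi-square per gene was at least 7.36. The members and all gene lists were chosen with earlier results of these data known. Beside the 10 members, listed genes were named by a rule: up to 4 called genes of highest mean level per list, 6 ligands, receptors and inhibitors, and the 8 genes most like the members. Genes named outside it are stated as such or serve as the uncalled remainder of a list. Promoter sequences are RefSeq's, on GRCm38.p6.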

Additional observations from a re-analysis of the deposited data

Results flagged for a closer look

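Among 70 groups of 4 libraries in which a member averaged at least 1 CPM, 3 held a library far from the other 3 by Dixon's test, which chance does in about 1 group in 20. Mpo stood at 9.59 CPM in replicate 1 of P1 MI leukocytes and at 3.52 to 4.43 CPM in the others. Mmp8 stood at 3.10 CPM in replicate 3 of P56 sham leukocytes and at 0.615 to 0.689 CPM in the others. Mmp8 also stood at 4.75 CPM in replicate 3 of the P56 MI cardiomyocyte fraction and at 0.161 to 0.607 CPM in the others.

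The change after MI differed between the ages, by the test of the difference itself, for 7 pairs of gene and population, each with a larger change at P56. On the log2 scale the difference was 4.91 for Lcn2 and 1.88 for Csf3r in cardiomyocytes and 3.10 for Lcn2 in fibroblasts. In leukocytes it was 4.17 for Mmp8, 3.12 for S100a8, 3.19 for S100a9 and 1.50 for Csf3r.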

How the results depend on the processing

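Of the values of single members under alternatives that left out no single library, 650 kept their direction and side of the threshold, 13 lost and 11 gained a call and 6 changed sign. The count of members higher in leukocytes than in each other population stayed within 1.5 times under the alternatives run: 8 to 10 in P1 sham and in P1 MI, 4 to 6 in P56 sham and 4 to 5 in P56 MI. Sign changes were found for uncalled values: Lcn2 in fibroblasts after MI at P1 was -0.076 by edgeR, and with age -0.21 by edgeR and -0.15 by DESeq2, while Mmp8 in leukocytes after MI at P1 was -0.041 with median-of-ratios scaling, -0.011 by edgeR and -0.013 by DESeq2. Leaving out single libraries gave -0.32 to 0.05 for Lcn2 in endothelial cells and -0.13 to 0.20 for Mmp8 and -0.10 to 0.26 for S100a9 in leukocytes after MI at P1, and -0.074 to 0.71 for Lcn2 in fibroblasts with age.

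With a filter of 5 CPM fewer members were tested, and 1 was called in cardiomyocytes after MI at P56, 1 for the difference between ages there, 1 in leukocytes after MI at P1, and 0 in fibroblasts (MI at P56 and the difference) and endothelial cells (MI at P56 and age). With no filter, fibroblasts gave 2 members called after MI at P1, 4 after MI at P56, 1 with age and 4 for the difference, and endothelial cells 3 after MI at P56 and 5 with age. For the difference between ages in cardiomyocytes 1 was called with a pseudocount of 1, no filter, median-of-ratios scaling, without libraries over 5% 18S and without both P1 replicates 4, and 1 to 2 without single libraries. That in endothelial cells gave 1 with a pseudocount of 1, edgeR, DESeq2 and without both P56 replicates 3, and 0 to 1 without single libraries. With only the compared libraries, endothelial cells gave 0 after MI at P56 and 1 with age, and leukocytes 1 after MI at P1. DESeq2 and the fit without both P1 replicates 4 gave 1 in leukocytes after MI at P1. Leaving out single libraries gave 1 to 2 there and 0 to 1 in endothelial cells after MI at P56. The fits without both replicates 3 or 4 were chosen after seeing the data.

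Same-numbered sham and MI libraries correlated at -0.43 to 0.36, and 0 to 2 of 4 libraries correlated best with their own number. No clear pairing of sham with MI was seen by this measure, which rests on 4 libraries a group and cannot exclude one. Across the 4 populations of a condition, libraries did correlate best with their own number at P56. A replicate block within age and operation, chosen after seeing the data, left the counts of members higher in leukocytes at 9, 9, 5 and 5. The replicate block called 1 member, not 2, for the difference between ages in cardiomyocytes, and Lcn2 in leukocytes after MI at P56 had an adjusted p of 0.052 under it. Depth limits Elane, at 31 reads or fewer in every library, and, in P56 leukocytes, Camp at 8 reads or fewer and Mpo at 7 reads or fewer.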
